A study of Mus musculus with 200 samples.

Results

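The amyloid precursor and tau pathway genes described here are 9 genes, App, Aplp1, Aplp2, Adam10, Bace1, Psen2, Mapt, Cdk5 and Cdk5r1, out of 56941 genes listed for the mouse brain after a mild closed-head injury (CHI). They were chosen by name, as the rows that carry these 9 symbols, and not by any measured value. Each symbol matched 1 row, and all 9 genes passed the filter on low counts in each comparison. Bulk RNA sequencing of poly(A) RNA was carried out on a single perfused hemisphere per mouse in 200 mice, of which 67 were sham-operated and the rest had CHI, with tissue taken 9, 24 or 72 h after surgery. CHI was a single impact to the closed skull under isoflurane, and sham mice went through the same procedure with no impact. The strain labels were C57BL/6J (61 mice), IL-1R1 gKO (55 mice), IL-1R1 eRestore (50 mice) and IL-1R1 nRestore (34 mice), and the labels do not spell out gKO, eRestore or nRestore.

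CHI and sham groups held 15 and 6 C57BL/6J mice at 9 h, then 14 and 6 at both 24 and 72 h. The IL-1R1 gKO groups held 13 and 6 mice at 9 h, then 12 and 6 at both later times. The IL-1R1 eRestore groups held 12 and 6 mice at 9 h, 9 and 5 at 24 h, and 12 and 6 at 72 h. The IL-1R1 nRestore groups held 6 and 4 mice at 9 h, 8 and 5 at 24 h, and 6 and 5 at 72 h. Mice were 3.3 to 7.67 months old and of both sexes, apart from the IL-1R1 nRestore mice at 72 h, which were all male. Each library is labelled as a separate mouse. The labels also give an experiment for each mouse, and no experiment held both 9 h and later mice, so the 9 h time point and its experiments cannot be told apart. Surgery was done in the morning, so time of day also differed between 9 h and the later times.

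The amyloid precursor protein, encoded by App, is a membrane protein of neurons and other cells that is cut along competing routes. Cleavage by alpha-secretase, for which ADAM10 is the main neuronal enzyme, releases a soluble fragment and precludes amyloid-beta. Cleavage by the beta-secretase BACE1 followed by gamma-secretase, whose catalytic subunit is a presenilin, releases amyloid-beta. APLP1 and APLP2 are paralogues of APP that are cut by some of the same enzymes but lack the amyloid-beta sequence. Tau, encoded by Mapt, binds microtubules in axons and is phosphorylated by CDK5, a kinase that is active in neurons once bound to an activator such as p35, the product of Cdk5r1. Axonal accumulation of APP protein is a widely used histological sign of axonal injury, and abnormally phosphorylated tau is studied in repeated head injury. The values below are RNA levels and hold no measurement of protein, cleavage or phosphorylation. In bulk tissue, fewer cells of a type and less RNA per cell cannot be told apart.

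Summed over genes, estimated counts lay between 14858000 and 57355700 per mouse, with a median of 20258900. App was covered by 17570 to 126846 estimated counts per mouse, whereas Psen2, the least covered of the 9 genes, had a median of 199.5 and at most 567. Il1r1 RNA was not lower in mice labelled IL-1R1 gKO, with a median of 3.94 TPM against 2.00 TPM in C57BL/6J mice, 3.09 TPM in IL-1R1 eRestore mice and 3.83 TPM in IL-1R1 nRestore mice, so strains are named below as labelled. Sex-linked genes went against the labelled sex in 2 of 200 mice, an IL-1R1 eRestore sham mouse at 24 h (replicate 4) and an IL-1R1 nRestore CHI mouse at 72 h (replicate 6). The 3 libraries farthest from the rest of their group were all from sham mice, namely IL-1R1 gKO replicate 6 and IL-1R1 nRestore replicate 1 at 24 h and IL-1R1 eRestore replicate 3 at 72 h. Leaving out either set did not change the number of the 9 genes called in any comparison. The median of each marker gene for neurons, astrocytes, microglia, oligodendrocytes, endothelium, choroid plexus and blood was above 0, the lowest being S100a8 at 0.288 TPM.

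In the GRCm39 build, App lies on the minus strand at chr16:84746573-84971126, Aplp1 on the minus strand at chr7:30134404-30145102 and Aplp2 on the minus strand at chr9:31053586-31123183. Of the secretase genes, Adam10 lies on the plus strand at chr9:70586221-70687511, Bace1 on the plus strand at chr9:45749834-45776173 and Psen2 on the minus strand at chr1:180054569-180091003. Mapt lies on the plus strand at chr11:104122024-104222946, Cdk5 on the minus strand at chr5:24612595-24628594 and Cdk5r1 on the plus strand at chr11:80367849-80372010, where its canonical transcript is a single exon of 4162 bases. Bace1 overlaps the protein-coding gene Rnf214 on the opposite strand, and Cdk5 overlaps the protein-coding genes Abcb8 and Asic3 on the opposite strand. App, Psen2 and Mapt overlap noncoding genes or pseudogenes on the opposite strand. Without knowledge of library strand some reads of all these genes may be shared.

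The 250 bases before the RefSeq start are printed for App, Aplp2 and Adam10, because the RNA of these genes varied together from mouse to mouse, as described further on. They are written 5′ to 3′ on the strand of the gene, with matches to the searched motifs in capitals.

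App (chr16:84970596-84970845, minus strand): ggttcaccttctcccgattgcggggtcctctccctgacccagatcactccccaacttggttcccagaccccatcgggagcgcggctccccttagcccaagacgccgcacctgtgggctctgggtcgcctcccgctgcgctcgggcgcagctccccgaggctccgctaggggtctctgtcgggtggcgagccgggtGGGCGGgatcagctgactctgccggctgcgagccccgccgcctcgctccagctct
Aplp2 (chr9:31123145-31123394, minus strand): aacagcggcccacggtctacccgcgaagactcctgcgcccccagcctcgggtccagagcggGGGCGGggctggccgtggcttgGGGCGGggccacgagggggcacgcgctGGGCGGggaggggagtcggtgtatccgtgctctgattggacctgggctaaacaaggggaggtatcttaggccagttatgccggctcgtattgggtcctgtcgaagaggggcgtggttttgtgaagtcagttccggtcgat
Adam10 (chr9:70586014-70586263, plus strand): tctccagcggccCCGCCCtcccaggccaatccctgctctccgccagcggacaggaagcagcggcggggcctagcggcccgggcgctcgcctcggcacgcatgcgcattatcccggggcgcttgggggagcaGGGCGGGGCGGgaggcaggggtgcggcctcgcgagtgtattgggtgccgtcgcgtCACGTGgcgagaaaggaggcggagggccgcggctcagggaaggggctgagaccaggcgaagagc

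These windows are rich in G and C, at 70.8% for App, 66.4% for Aplp2 and 74.0% for Adam10, against a median of 52.4% over 32851 such windows. The GC box GGGCGG, the core bound by SP1-type factors, matched on either strand 1 time in App, 3 times in Aplp2 and 3 times in Adam10, counting overlapping matches, and 32.7% of all windows held it. The E-box CACGTG matched 1 time in Adam10 and is held by 6.02% of windows. The cAMP response element TGACGTCA (1.55% of windows), the EGR site GCGTGGGCG (0.536%) and the AP-1 site TGAGTCA (4.46%), which bind factors induced by neuronal activity or stress, had no match in these 3 windows. A window was found for 5 of the 9 genes, and Bace1, Mapt, Cdk5 and Cdk5r1 had none. In the GENCODE annotation the outermost starts of these 3 genes lie upstream of the RefSeq start, so these windows overlap the genes as annotated there.

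App was the most abundant of the 9 RNAs per unit length, followed by its paralogues. In the 67 sham mice App ranged from 581 to 1430 TPM (a length-corrected share of the library) with a median of 1185 TPM. Aplp1 had a median of 786 TPM (505 to 928) and Aplp2 a median of 605 TPM (358 to 705). Mapt had a median of 204 TPM (130 to 247), Cdk5r1 of 146.4 TPM (84.5 to 190) and Cdk5 of 64.4 TPM (41.8 to 80.1). The alpha-secretase Adam10 and the beta-secretase Bace1 were present at similar levels, with medians of 49.0 TPM (30.8 to 60.1) and 45.1 TPM (25.1 to 55.2). Psen2, a presenilin gene, had a median of 11.3 TPM (6.88 to 16.7). App exceeded Aplp1, and Aplp1 exceeded Aplp2, in 67 of 67 sham mice. The order was least firm between Cdk5 and Adam10, which held in 62 of 67 sham mice, and between Adam10 and Bace1, which held in 59 of 67, so the ranges of these 3 genes overlapped.

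**Figure D1:**
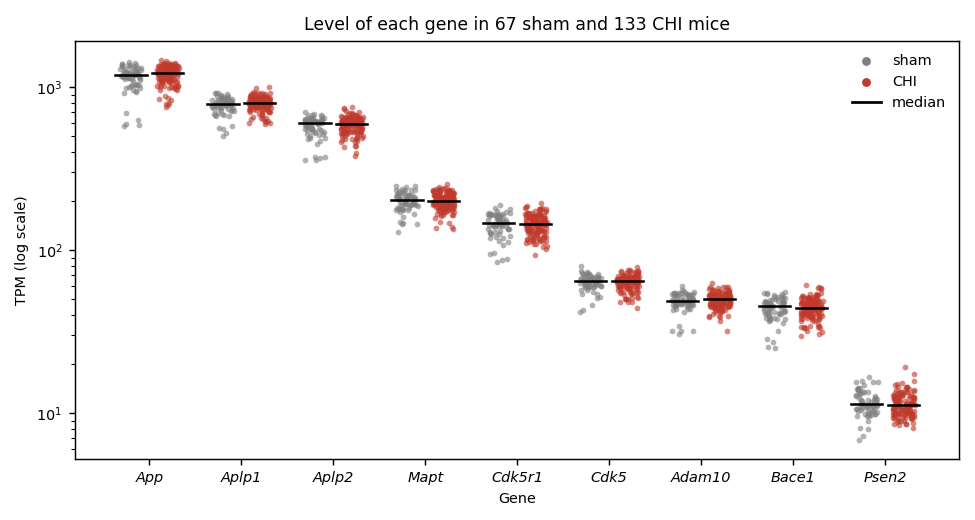
TPM on a log axis for the 9 genes, each point being 1 mouse, in sham (67) and CHI mice, with a line at the median. App lies highest with a sham median of 1185 TPM and Psen2 lowest with 11.3 TPM, and the sham and CHI mice overlap for each gene, with a few sham mice lowest for App, Aplp2 and Adam10.

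Group medians of each gene spanned a band over the 24 groups of strain, time and surgery. For App they ran from 1017 TPM (IL-1R1 nRestore CHI mice at 24 h) to 1342 TPM (IL-1R1 eRestore CHI mice at 72 h), for Mapt from 175.7 TPM (IL-1R1 nRestore CHI mice at 9 h) to 226 TPM (IL-1R1 eRestore CHI mice at 72 h) and for Cdk5r1 from 123 TPM (C57BL/6J CHI mice at 24 h) to 165.98 TPM (C57BL/6J sham mice at 9 h). The corresponding bands were 696 to 863 TPM for Aplp1, 520 to 649 TPM for Aplp2, 45.9 to 54.3 TPM for Adam10 and 38.5 to 51.4 TPM for Bace1. Cdk5 ran from 54.8 to 69.4 TPM and Psen2 from 10.4 to 13.6 TPM. In none of the 108 comparisons of a gene between CHI and sham mice of the same strain and time did the groups stand apart. Thus 0 of 108 pairs of groups failed to overlap, and the share over all genes was not counted.

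The first question was whether CHI changed the RNA of these genes within each strain at 9 h, when the transcriptional response was widest. Genes were called as DEGs at an adjusted p under 0.05 in edgeR's quasi-likelihood test, with Benjamini-Hochberg adjustment over all genes tested. In C57BL/6J mice 14.1% of 16967 genes were called, and of the 9 genes only Cdk5r1 was, being lower after CHI. In IL-1R1 eRestore mice 7.34% of 16652 genes were called, and of the 9 genes only Adam10 was, being higher. None of the 9 was called in IL-1R1 gKO mice, where 0.199% of genes were called, or in IL-1R1 nRestore mice, where 0.608% were. The median log2 fold change of the 9 genes in C57BL/6J mice was 0.0056, beside −0.011 over all genes tested. Both calls are 1 gene in 9, a share near these backgrounds.

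Cdk5r1, the gene of the CDK5 activator p35, was called in C57BL/6J mice. In C57BL/6J mice at 9 h its normalized count was 6753 in the lowest, 7961 in the median and 8826 in the highest sham mouse, and 5494, 7052 and 8068 in the CHI mice. Of 15 CHI mice, 14 lay below the sham median and 4 below all sham mice, so most CHI mice were low while the groups overlapped. The log2 fold change was −0.22 (SE 0.049, 95% CI −0.32 to −0.12), with means of 7973 ± 819 (SD, n = 6) in sham and 6911 ± 710 (SD, n = 15) in CHI mice, and an adjusted p of 0.00335 in edgeR. The call held in 14 of 14 alternatives, with log2 fold changes of −0.24 to −0.19 and adjusted p-values of 0.000127 to 0.0432. One of these was the 14 mice of experiment eIL-1-76 alone, where the value was −0.21 (adjusted p = 0.0360 in edgeR).

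In IL-1R1 gKO mice at 9 h the Cdk5r1 counts were 6778, 7496 and 8395 (lowest, median and highest) in sham and 5591, 6909 and 7934 in CHI mice, with 6 of 13 CHI mice below all sham mice. The log2 fold change of −0.11 had a 95% CI of −0.23 to 0.012 and did not pass the test. In IL-1R1 nRestore mice the counts were 6153, 6691 and 6962 in sham and 5924, 6462 and 7416 in CHI mice, and the log2 fold change was −0.090 (95% CI −0.25 to 0.068). In IL-1R1 eRestore mice they were 7169, 7480 and 7777 in sham and 6340, 7816 and 8636 in CHI mice, where the CHI mice spread to both sides of the sham mice and the log2 fold change was 0.033 (95% CI −0.069 to 0.13). Point estimates were therefore below 0 in 3 of 4 strains, and only that of C57BL/6J mice was called.

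Markers of other cell types moved beside Cdk5r1 in C57BL/6J mice at 9 h. Of 5 microglial markers 3 fell (P2ry12, Tmem119 and Aif1), and their summed level ran from 130 to 273 TPM in sham and from 77.5 to 188.6 TPM in CHI mice. Of 6 astrocyte markers Aldh1l1 and Gfap rose, and Pecam1 rose while Flt1 fell among 4 endothelial markers. None of 8 neuronal markers was called, with summed levels of 6728 to 8466 TPM in sham and 6477 to 8686 TPM in CHI mice. The 4 choroid plexus markers, none of which was called in this strain, summed to 14.7 to 5925 TPM in sham and 4.73 to 2487 TPM in CHI mice. The part of these differences in the Cdk5r1 result was not tested.

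**Figure D2:**
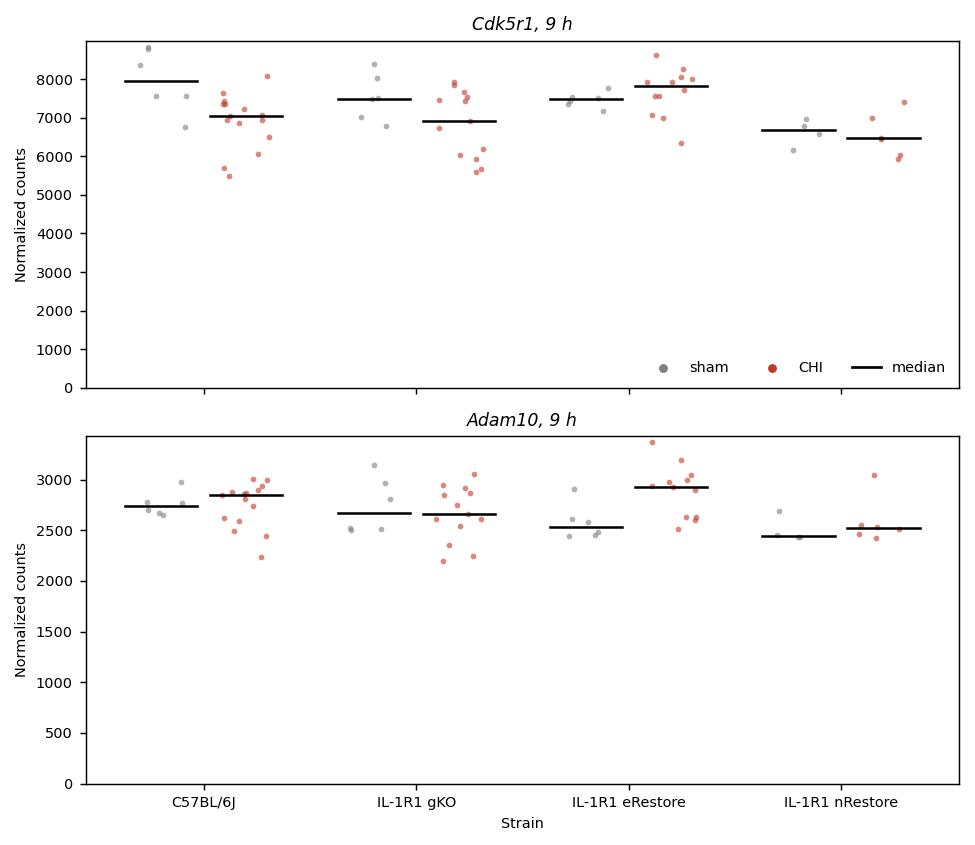
Normalized counts of Cdk5r1 and Adam10 at 9 h in sham and CHI mice of each strain, with 1 point per mouse and a line at the median. C57BL/6J CHI mice sit low for Cdk5r1 (median 7052 against 7961 in sham) and IL-1R1 eRestore CHI mice sit high for Adam10 (median 2927 against 2531), with overlap in both.

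Adam10, the alpha-secretase gene, was called in IL-1R1 eRestore mice at 9 h. Its normalized counts were 2439, 2531 and 2909 in sham and 2513, 2927 and 3367 in CHI mice (lowest, median and highest). Of 12 CHI mice, 7 lay above all sham mice and 1 lay below the sham median. The log2 fold change was 0.17 (SE 0.050, 95% CI 0.062 to 0.27) with an adjusted p of 0.0477 in edgeR, and the call held in 6 of 14 alternatives. It was lost when sham replicate 1, 2, 4 or 5 was left out, without covariates, without the low-count filter, with the experiment in place of age and in experiment eIL-1-76 alone, with log2 fold changes of 0.12 to 0.17 and adjusted p-values of 0.0751 to 0.341 in these 8 settings. In the other strains the log2 fold change at 9 h was −0.024 (C57BL/6J), −0.028 (IL-1R1 gKO) and −0.0043 (IL-1R1 nRestore). In the same IL-1R1 eRestore mice, Syt1 and Slc17a7 rose among 8 neuronal markers and Gfap rose among 6 astrocyte markers. Among 5 microglial markers P2ry12 fell. Neuronal markers summed to 6256 to 7668 TPM in sham and 7274 to 8613 TPM in CHI mice. The summed astrocyte markers did not rise, with medians of 1634 TPM in sham and 1560 TPM in CHI mice. The part of these shifts in the Adam10 result was not tested.

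Bace1 and Cdk5 had a 95% bound near 0 in the same strain at 9 h, where 25.9% of all genes had an unadjusted p under 0.05 in edgeR. The log2 fold change of Bace1 in IL-1R1 eRestore mice at 9 h was 0.11 (95% CI −0.0050 to 0.22), and that of Cdk5 was −0.14 (95% CI −0.27 to −0.0071), neither of which passed the adjustment over all genes. In C57BL/6J mice Bace1 stood at −0.090 (95% CI −0.19 to 0.011). App itself was at 0.024 (95% CI −0.064 to 0.11) in C57BL/6J mice, −0.0029 in IL-1R1 gKO mice, 0.078 in IL-1R1 eRestore mice and −0.031 in IL-1R1 nRestore mice, and Mapt was between −0.062 and −0.0084 in the 4 strains. None of these passed the test.

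With the 4 strains in a single fit at 9 h (46 CHI and 22 sham mice, which are the same mice as above), 23.9% of 18741 genes were called, and again only Cdk5r1 of the 9. Its log2 fold change was −0.098 (SE 0.035, 95% CI −0.17 to −0.028, adjusted p = 0.0335 in edgeR), a difference of −6.55%. This call held in 6 of 14 alternatives and was lost without the C57BL/6J mice (−0.052), without the IL-1R1 gKO mice (−0.068), within each experiment alone (−0.13 to −0.072), without covariates (−0.096), without the low-count filter (−0.094) and with DESeq2 length offsets (−0.091). The other 8 genes had log2 fold changes from −0.032 (Mapt, 95% CI −0.087 to 0.024) to 0.034 (Adam10). App was at 0.020 (95% CI −0.034 to 0.074), Aplp1 at 0.023 and Aplp2 at 0.024, and Bace1, Psen2 and Cdk5 at −0.021, −0.0074 and 0.016. The median of the 9 was 0.016 beside −0.0026 over all genes tested, and the median absolute log2 fold change was 0.023 beside 0.10 over all genes. The outermost 95% bounds of any of the 9 genes in this fit over all strains were −11.0% and 7.72%, while intervals within single strains were wider. In this fit 4 of 4 choroid plexus markers (median log2 fold change −1.84) and 4 of 5 microglial markers (−0.25) fell, 1 of 8 neuronal and 2 of 6 astrocyte markers rose, and of 4 endothelial markers 2 rose and 1 fell.

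**Figure D3:**
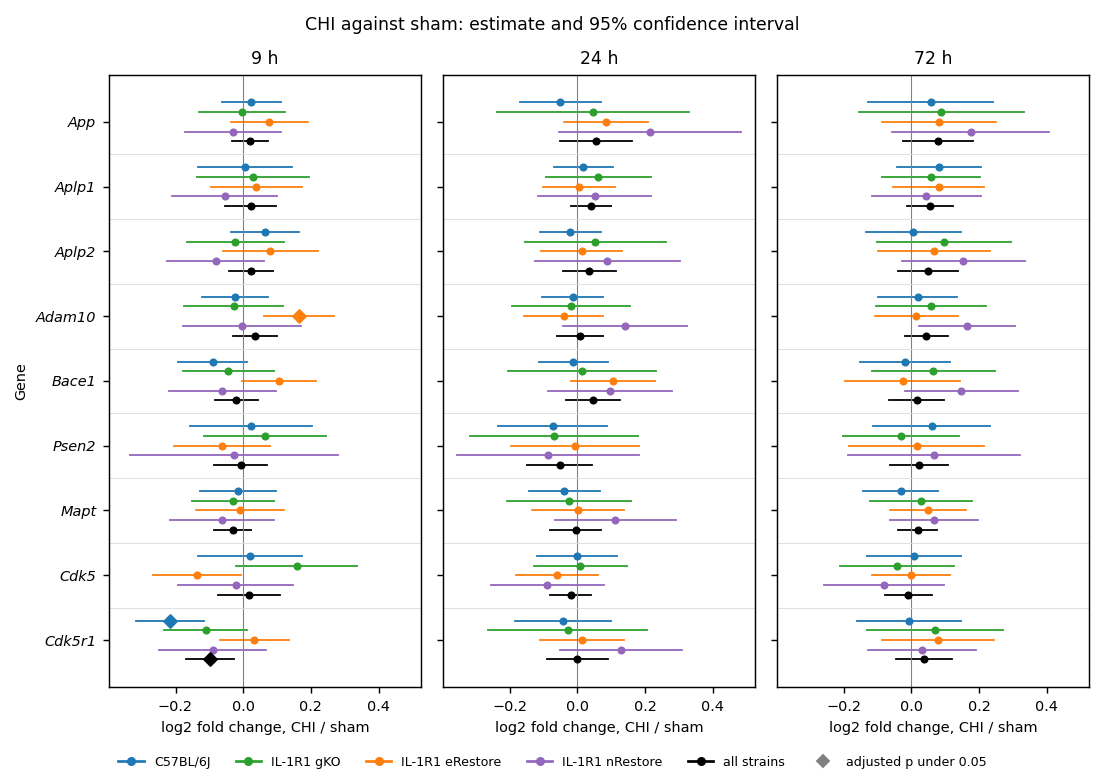
Log2 fold change of CHI against sham (points) with 95% confidence intervals (lines) for the 9 genes in each strain and in all strains together, at 9, 24 and 72 h. Most intervals span 0, with Cdk5r1 in C57BL/6J mice at 9 h (−0.22) and Adam10 in IL-1R1 eRestore mice at 9 h (0.17) as the called values within strains.

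At 24 h none of the 9 genes was called in any strain, while 0.404% of genes were called in C57BL/6J mice, 0.0059% in IL-1R1 gKO mice, 0% in IL-1R1 eRestore mice and 0% in IL-1R1 nRestore mice. Where edgeR called no gene, 1494 genes (IL-1R1 eRestore) and 740 genes (IL-1R1 nRestore) had an unadjusted p under 0.05, and DESeq2 with its own size factors called 50 and 3 genes, none of them among the 9. None of the 9 had an unadjusted p under 0.05 in any strain at 24 h. In all strains together 1.48% of 18495 genes were called and 0 of the 9, also by DESeq2. Cdk5r1, at 5338, 6128 and 6993 normalized counts in C57BL/6J sham and 5148, 5923 and 6967 in CHI mice, had a log2 fold change of −0.042 in that strain and of 0.00015 (95% CI −0.090 to 0.090) over all strains. App was at 0.054 (95% CI −0.052 to 0.16), Bace1 at 0.046, Mapt at −0.0049 and Psen2 at −0.052 over all strains. The App value turned to −0.00035 without the 3 libraries farthest from their groups, 2 of which were sham mice at 24 h, and to −0.034 in experiment eIL-1-38 alone. In this fit 2 of 8 neuronal markers rose, and among 6 astrocyte markers 1 rose and 1 fell, and their part in these values was not tested. The outermost 95% bounds of the 9 genes were −9.72% and 11.8%. CHI and sham mice at 24 h were unevenly spread over experiments. Experiment NiL-1-21 held 18 CHI and 1 sham mice, NiL-1-24 held 8 and 12, and eIL-1-38 held 17 and 9. IL-1R1 gKO and IL-1R1 eRestore CHI mice at 24 h were up to 7.4 months old, against 5.3 months in their sham mice. These fits held age but not the experiment, whose part in the 24 h values was not tested.

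At 72 h none of the 9 was called either, with 0% of genes called in C57BL/6J mice, 0% in IL-1R1 gKO mice, 0.00605% in IL-1R1 eRestore mice and 0.0121% in IL-1R1 nRestore mice. In C57BL/6J and IL-1R1 gKO mice 869 and 376 genes had an unadjusted p under 0.05 in edgeR, and DESeq2 with its own size factors called 38 and 0. Adam10 in IL-1R1 nRestore mice (log2 fold change 0.16, 95% CI 0.021 to 0.31) was the 1 member value with an unadjusted p under 0.05. Over all strains 0.706% of 18408 genes were called and 0 of the 9, also by DESeq2. The log2 fold changes over all strains were above 0 for 8 of 9 genes, with a median of 0.038 beside −0.0034 over all genes tested, and App had the highest at 0.078 (95% CI −0.025 to 0.18), followed by Aplp1 (0.055), Aplp2 (0.048) and Adam10 (0.044). Cdk5 was the exception at −0.0088. In the same fit 3 of 5 microglial markers (median log2 fold change of the list 0.19) and 1 of 6 astrocyte markers rose, and their part in these values was not tested. App normalized counts in C57BL/6J mice at 72 h were 33621, 41339 and 48057 in sham and 31123, 43758 and 47400 in CHI mice, which overlapped throughout. The outermost 95% bounds were −5.29% and 13.4%. The direction depended on the experiment, since App was at −0.011 in experiment eIL-1-38 alone (37 mice) and −0.042 in experiment nIL-1-60 alone (11 mice), against 0.23 in experiment eIL-1-56 (16 mice), where 3 sham libraries were low in App.

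Whether a call in a single strain was a difference between strains was tested as an interaction within each time, against C57BL/6J mice that all 3 contrasts share. None of the 9 genes was called in any of the 9 contrasts. At 9 h 0% of genes were called for IL-1R1 gKO (1199 at an unadjusted p under 0.05 in edgeR), 0.0107% for IL-1R1 eRestore and 0.00534% for IL-1R1 nRestore. At 24 h the shares were 0.00541%, 0.0108% and 0% (754 at an unadjusted p under 0.05 for IL-1R1 nRestore), and at 72 h 0%, 0% and 0.00543% (529 and 793 at an unadjusted p under 0.05 for IL-1R1 gKO and IL-1R1 eRestore). DESeq2 was not run on these contrasts. The CHI effect on Cdk5r1 at 9 h was 0.24 higher on the log2 scale in IL-1R1 eRestore than in C57BL/6J mice (95% CI 0.056 to 0.42, adjusted p = 0.393 in edgeR). For Bace1 the same difference was 0.18 (adjusted p = 0.522) and for Adam10 0.17 (adjusted p = 0.583). For Cdk5r1 the IL-1R1 gKO effect minus the C57BL/6J effect at 9 h was 0.099 (95% CI −0.083 to 0.28). The calls in single strains were thus not shown to differ between strains. At 9 h the IL-1R1 nRestore and C57BL/6J mice shared no experiment, so that contrast cannot tell strain from experiment.

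Contrasts of the CHI effect between times were fitted over all strains. None of the 9 genes was called between 9 and 24 h (10.7% of 20111 genes called), between 9 and 72 h (13.1%) or between 24 and 72 h (0.0348%). The Cdk5r1 effect at 9 h was −0.13 on the log2 scale relative to 72 h (95% CI −0.24 to −0.019, adjusted p = 0.116 in edgeR). The difference of the CHI effect between males and females was not called for any of the 9, with 0% of genes called at 9 h (370 at an unadjusted p under 0.05 in edgeR), 0% at 24 h (916) and 0.00565% at 72 h, and DESeq2 was not run on it. No member had an unadjusted p under 0.05 for a sex difference at any time. The Cdk5r1 effect at 9 h in males was −0.041 relative to females (95% CI −0.18 to 0.099).

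The ratio of the estimated count to TPM gives the effective transcript length of a gene relative to other genes. It can move when longer or shorter transcripts are used, and other sources of a shift were not tested. None of the 9 genes was called in limma at 9 h (0.368% of 13592 genes called), 24 h (0% of 13963, 648 at an unadjusted p under 0.05) or 72 h (0% of 13900, 535 at an unadjusted p under 0.05), and DESeq2 does not apply to these ratios. Mapt, whose splicing yields tau isoforms that differ in length, had a log2 difference in relative length of −0.0024 (95% CI −0.023 to 0.019) at 9 h. For App the difference at 24 h was −0.0014 (95% CI −0.0060 to 0.0032). Cdk5r1 at 24 h was the 1 member value whose interval did not span 0, at −0.015 (95% CI −0.027 to −0.0021), with an adjusted p of 0.920 in limma. Psen2 varied most between mice, from 0.417 to 0.704 times the median gene at 24 h.

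Levels in sham mice were compared between strains. Against the C57BL/6J sham mice, 0 of the 9 genes were called in IL-1R1 gKO (4.51% of 18994 genes called) and 0 in IL-1R1 eRestore sham mice (4.29%). In IL-1R1 nRestore sham mice App, Mapt and Cdk5r1 were lower, which is 3 of 9 where 12% of genes were called. App normalized counts at 9 h were 45890, 49212 and 51913 (lowest, median and highest) in C57BL/6J and 41571, 43163 and 44347 in IL-1R1 nRestore sham mice, which did not overlap. At 24 h they were 37721, 43199 and 50749 against 22170, 35801 and 39739, and at 72 h 33621, 41339 and 48057 against 23724, 37302 and 40092, with overlap at both times. Mapt ran 10023, 11936 and 12652 at 9 h, 9505, 10733 and 11430 at 24 h and 9997, 10822 and 11778 at 72 h in C57BL/6J sham mice, and 10308, 10623 and 10654, then 7233, 9512 and 9872, then 8589, 9930 and 10140 in IL-1R1 nRestore sham mice. Cdk5r1 ran 6753, 7961 and 8826, then 5338, 6128 and 6993, then 5518, 5872 and 6614 in C57BL/6J sham mice, and 6153, 6691 and 6962, then 4069, 5622 and 5840, then 4846, 5917 and 6083 in IL-1R1 nRestore sham mice. Both genes had lower medians in IL-1R1 nRestore sham mice at 9 and 24 h, and the groups overlapped at each time. The log2 difference was −0.24 (95% CI −0.40 to −0.086, adjusted p = 0.0311 in edgeR) for App, −0.18 (95% CI −0.27 to −0.083, adjusted p = 0.00888) for Mapt and −0.17 (95% CI −0.29 to −0.055, adjusted p = 0.0428) for Cdk5r1.

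These differences moved with the experiment. In a fit with the experiment in place of time, added after the data were seen, the values were −0.11 for App, −0.092 for Mapt and −0.020 for Cdk5r1 (adjusted p = 0.624, 0.424 and 0.935 in edgeR), and 0 of the 9 genes remained called. All IL-1R1 nRestore mice at 9 h came from experiment TM-2-33, which held no C57BL/6J mice. Their sham mice at 9 h were 3.3 to 4 months old, against 4.4 to 4.8 months in C57BL/6J sham mice. Strain, experiment and age therefore cannot be told apart between these 2 groups at 9 h. Markers also moved in the IL-1R1 nRestore sham mice, with Rbfox3 lower (−0.23) among 8 neuronal markers, Gfap higher (0.35) among 6 astrocyte markers, and 2 of 4 endothelial markers lower, and the part of these in the result was not tested.

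A few sham libraries set the low end of the amyloid precursor family. The 5 sham mice with the lowest App had 581, 584, 592, 628 and 698 TPM, apart from the next at 926 TPM, and the lowest CHI mouse had 756 TPM. They were IL-1R1 nRestore replicate 5, IL-1R1 gKO replicate 3 and IL-1R1 eRestore replicate 3 at 72 h, all of experiment eIL-1-56, and IL-1R1 gKO replicate 6 and IL-1R1 nRestore replicate 1 at 24 h, both of experiment NiL-1-24. In these mice Aplp1 (505 to 577 TPM), Aplp2 (358 to 375 TPM), Adam10 (30.8 to 34.4 TPM), Bace1 (25.1 to 31.7 TPM), Mapt (130 to 147.8 TPM) and Cdk5r1 (84.5 to 95.4 TPM) were at or near the bottom of the sham range. Cdk5, at 59.5 to 69.4 TPM, was near its sham median of 64.4 TPM, and Psen2 ran from 6.88 to 10.97 TPM against a sham median of 11.3 TPM. Neuronal markers in them summed to 4506 to 5220 TPM, against sham medians of 6455 to 7126 TPM at the 3 times, and mitochondrial genes took 8.88% to 9.76% of counts against a sham median of 6.44%. Of the 3 libraries that stood farthest from their groups, all 3 are among these 5.

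Within cells of the same strain, time, surgery and experiment, most pairs of the 9 genes varied together from mouse to mouse, Cdk5 being the exception with several partners. Such cells of 2 or more mice numbered 46 and held 68 mice at 9 h, 63 at 24 h and 58 at 72 h. Of 36 pairs, 30 had a positive correlation of residual log2 CPM (library-scaled counts). An adjusted p under 0.05 by a 2-sided permutation test within cells was reached by 28 of 36. No such count was made for pairs of other genes, so these shares are not shown to be particular to the 9 genes. App and its paralogue Aplp2 had the highest Pearson r, 0.91 (Spearman rho 0.85), which was 0.90 without the 2 mice farthest from the median and 0.81, 0.94 and 0.95 at 9, 24 and 72 h. Both p-values of this pair were 1e-05, the smallest that 100000 shuffles can give, as were those of App with Adam10, whose r was 0.72 (rho 0.57, and 0.66 without the 2 farthest mice). That relation was weaker at 9 h (0.32) than at 24 h (0.85) and 72 h (0.81). After adjustment over the 36 pairs these p-values were 1.89e-05.

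Other pairs changed sign between times. App with Bace1 had a pooled r of 0.68, but −0.17 at 9 h, 0.86 at 24 h and 0.83 at 72 h, and App with Mapt had 0.56 pooled, −0.14 at 9 h, 0.78 at 24 h and 0.81 at 72 h, so neither pooled value held within 9 h. Their rho values were 0.54 and 0.51, and their r without the 2 farthest mice 0.63 and 0.51. App with Cdk5 was −0.13 pooled (rho −0.12, permutation p = 0.183 and 0.211), 0.47 at 9 h and −0.36 at both later times. Bace1 with Mapt was positive at each time (0.55, 0.72 and 0.85, pooled 0.70), and Bace1 with Cdk5 was negative at each time (−0.72, −0.55 and −0.61, pooled −0.60). Their rho values were 0.63 and −0.61, and their r without the 2 farthest mice 0.68 and −0.61. At 24 and 72 h the kinase Cdk5 thus had a negative r with App, whereas its activator Cdk5r1 had a positive r with App (pooled 0.70, rho 0.62, 0.64 without the 2 farthest mice, and 0.28, 0.82 and 0.77 at the 3 times). The values at single times carry no test. Pooled over times, App with Cdk5 was 0.026 in sham and −0.27 in CHI mice, and App with Cdk5r1 was 0.80 and 0.65. For each pair of this paragraph other than App with Cdk5, both permutation p-values were again the smallest possible, 1e-05. The same residuals of App had an r of 0.91 with the summed neuronal markers and of −0.66 with the mitochondrial share of counts, given here as a description over the same mice, and the part of these measures in the correlations was not tested.

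**Figure D4:**
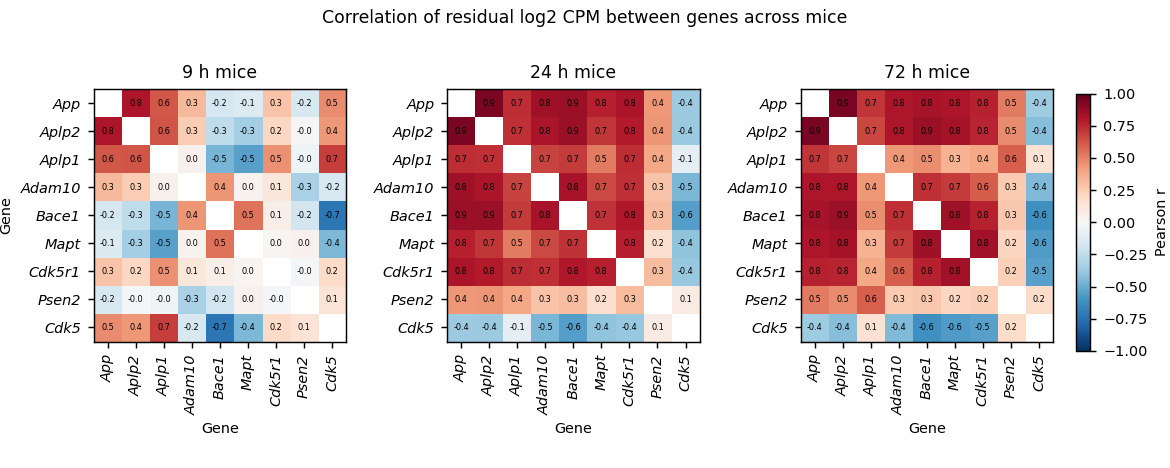
Pearson correlations of residual log2 CPM between the 9 genes within strain, surgery and experiment, shown for the 68 mice at 9 h, 63 at 24 h and 58 at 72 h. App and Aplp2 are strongly correlated at each time (0.81, 0.94 and 0.95), while App with Bace1 changes from −0.17 at 9 h to 0.86 at 24 h.

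Over the 24 group means, the genes most like App among 20110 others were Pnkd, Uba1, Paqr4, Eif5b and Kif3b, with Pearson r of 0.97 for each after rounding, and Aplp2 ranked 13 with 0.95. Those most like Mapt were Pip4k2b (0.95), Zbtb7a, Parm1, Pcdhga3 and Clcn6, and those most like Psen2 were Ube2z (0.92), Gas6, Hrh3, Tmem259 and Chga. These values describe 24 groups that share experiments and carry no test.

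The 9 genes were set beside 60 other genes of the pathway, in lists written by hand. In all strains at 9 h 11 of 60 were called (18.3%, beside 23.9% of all genes), 2 higher and 9 lower. Among enzymes that cut APP, Bace2 (a homologue of Bace1) fell by 0.65 on the log2 scale and Adam17 (an alpha-secretase) fell by 0.20, while Adam10 and Bace1 were not called. None of 7 gamma-secretase genes was called over all strains at any time. Mme, the gene of the amyloid-beta degrading enzyme neprilysin, fell by 0.39, and Apbb1, an adaptor that binds the APP tail, rose by 0.082. Of the microtubule proteins beside Mapt, Dcx (doublecortin, of immature neurons) fell by 0.36 and Map6 by 0.15.

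Among tau kinases and their activators, 5 of 14 were called over all strains at 9 h with Cdk5r1 counted, beside 23.9% of all genes. The second p35-type activator Cdk5r2 (p39) fell by 0.14, the tau-tubulin kinase Ttbk1 by 0.17 and the microtubule affinity-regulating kinase Mark1 by 0.13, while Mark4 rose by 0.12. The median log2 fold change of this list was 0.010. The phosphatase subunit Ppp2r2b fell by 0.16, and none of 4 calpain genes, whose enzyme converts p35 to p25, was called. In C57BL/6J mice alone 4 of 60 were called at 9 h (6.67% beside 14.1% of all genes), all lower, namely Bace2, Dcx, Map6 and Ppp2r2b. In IL-1R1 eRestore mice 4 of 60 were called (6.67% beside 7.34%), with Bace2 and the gamma-secretase gene Psenen lower and Map1b and Mark4 higher.

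**Figure D5:**
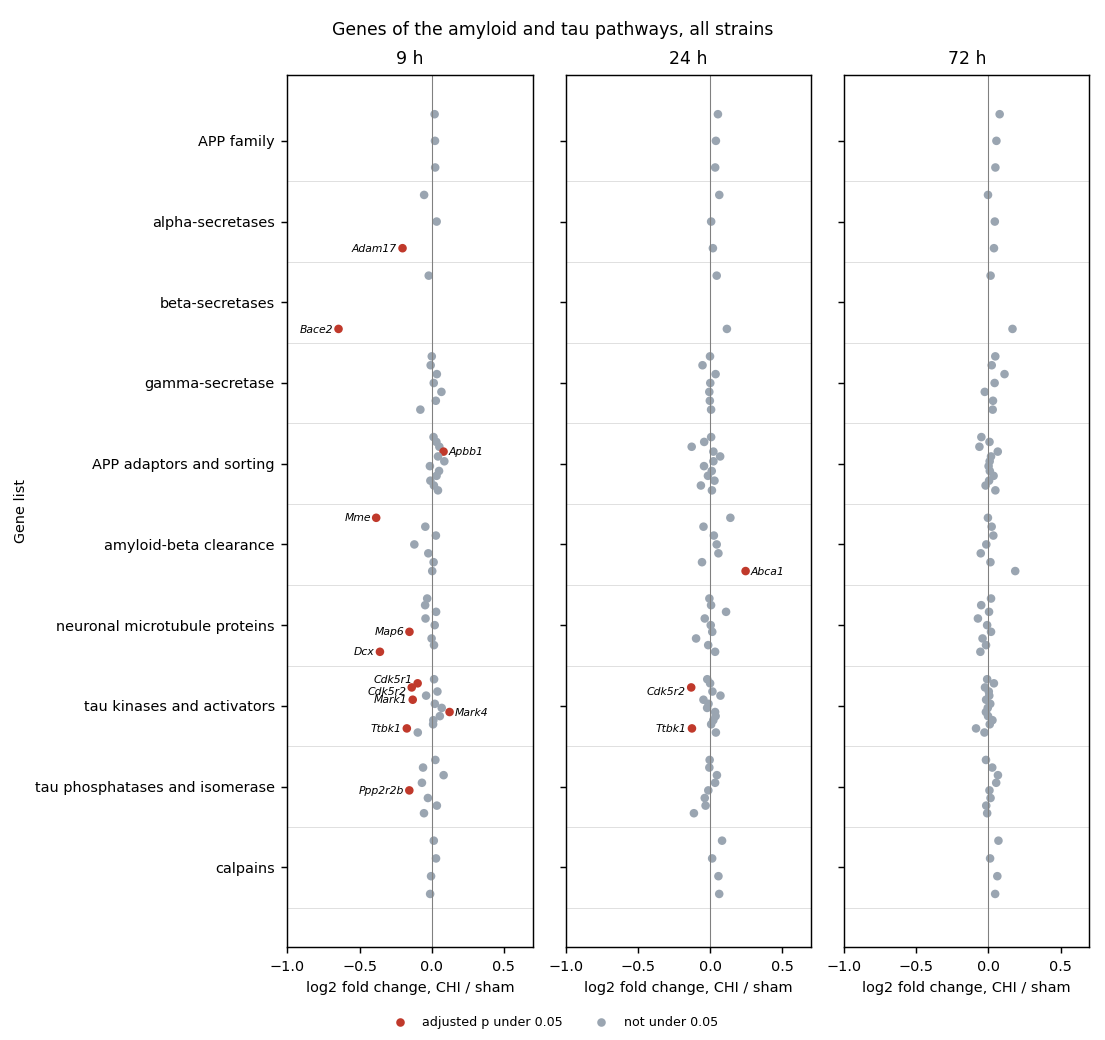
Log2 fold change of CHI against sham over all strains for each gene of the pathway lists at 9, 24 and 72 h, grouped by role, with called genes marked. Bace2 (−0.65), Mme (−0.39) and Dcx (−0.36) lie farthest below 0 at 9 h, and Abca1 (0.25) above 0 at 24 h.

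At 24 h 3 of 60 genes were called over all strains (5% beside 1.48% of all genes). Abca1, a cholesterol transporter that lipidates apolipoprotein E, rose by 0.25 (adjusted p = 0.000335 in edgeR), and it was also the 1 pathway gene called in C57BL/6J mice. Cdk5r2 and Ttbk1 fell by 0.13 each. At 72 h 0 of 60 were called in edgeR, with 6 at an unadjusted p under 0.05. The gene with the nearest value was Ncstn, a gamma-secretase subunit, at 0.11 (adjusted p = 0.0969). In the IL-1R1 nRestore sham mice 11 of 60 were called against C57BL/6J (18.3% beside 12% of all genes), 3 higher (Ece2, Stmn1 and Stmn2) and 8 lower, of which Ide, the gene of insulin-degrading enzyme, was at −0.57.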

How the data were processed

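Per the submitters' processing notes and the study's methods, the authors aligned paired-end reads of poly(A) libraries to GRCm39 with STAR and quantified genes with Salmon in nf-core/rnaseq. The annotation release and the strandedness are not given in the sources used here. The authors deposited estimated counts per gene, which are not normalized, and TPM, which are scaled for length and library size. Strain, surgery, time, sex, age and experiment came from the labels.

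Rounded estimated counts entered the quasi-likelihood F test (TMM factors, robust) of edgeR 4.0.16 in R 4.3.3. Genes were kept if 10 counts were reached in a number of mice equal to the smallest group. Sex and age were covariates, age being left out where it was a linear function of the other terms, and sex where all mice were of 1 sex. Fits over all strains also held strain, and the sham comparison held time. P-values were adjusted by Benjamini-Hochberg over all genes, with a threshold of 0.05. Normalized counts are scaled by TMM. Relative effective length was tested with limma 3.58.1 on log2(estimated count/TPM), and correlations by 100000 shuffles. DESeq2 1.42.0, other factors and filters, other covariates, single experiments, left-out strains and left-out sham mice were alternatives, and leaving out single CHI mice was not run. P-values of the fits set a difference against the variation between mice within groups, and the main fits did not hold the experiment. Those of the correlations came from shuffles within cells. The reads carry no molecular identifiers, so a count of reads is not a count of separate molecules. The scripts were tested on simulated data.

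All 9 genes were named in each comparison, with up to 4 genes of each list by smallest p over all strains and the 5 genes most like App, Mapt and Psen2. The genes, lists and tests were chosen with earlier results of these data known. Marker genes in single strains and a few other genes were named after their values were seen. Gene positions came from GENCODE and promoter windows from RefSeq, both for GRCm39.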

Additional observations from a re-analysis of the deposited data

Results flagged for a closer look

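In groups of 4 to 10 mice, the highest or lowest mouse was set against the others by Dixon's 95% criterion on its gap to the nearest mouse. Of the 9 genes in 16 groups each, 19 combinations passed, where chance gives about 1 in 20 groups, or 7.2. The values are normalized counts, and several come from the same mouse.

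IL-1R1 eRestore sham replicate 3 at 72 h was lowest of 6 for App (29426, nearest mouse 43015), Aplp2 (11061), Adam10 (2033), Bace1 (1775) and Mapt (8720). IL-1R1 nRestore sham replicate 5 at 72 h was lowest of 5 for App (23724, nearest mouse 35807). IL-1R1 gKO sham replicate 6 at 24 h was lowest of 6 for Aplp1 (13736) and Adam10 (1703). IL-1R1 nRestore sham replicate 1 at 24 h was lowest of 5 for Aplp1 (14498) and Cdk5r1 (4069), and IL-1R1 gKO sham replicate 3 at 72 h was lowest of 6 for Aplp1 (15793). These 5 mice are the 5 sham mice with the lowest App TPM.

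IL-1R1 nRestore sham replicate 3 at 9 h was highest of 4 for Aplp1 (24285) and Adam10 (2691) and lowest for Mapt (10308). IL-1R1 eRestore sham replicate 3 was highest for Aplp2 at 24 h (18046 of 5 mice) and, as another mouse, for Adam10 at 9 h (2909 of 6 mice). Without that mouse the log2 fold change of Adam10 in IL-1R1 eRestore mice at 9 h was 0.19, against 0.17 with it. IL-1R1 nRestore CHI replicate 5 at 9 h was highest of 6 for Adam10 (3049). Psen2 was lowest in C57BL/6J sham replicate 5 at 24 h (202) and highest in IL-1R1 gKO sham replicate 4 at 72 h (251).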

How the results depend on the processing

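The Cdk5r1 call in C57BL/6J mice at 9 h kept its direction and its side of the threshold in 14 of 14 alternatives. The number of the 9 genes called went from 1 to 0 in IL-1R1 eRestore mice at 9 h with the experiment in place of age, no covariates, no filter and experiment eIL-1-76 alone, and ran from 0 to 1 when each sham replicate was left out in turn. It went from 1 to 0 in all strains at 9 h with DESeq2 length offsets, no covariates, no filter, any of the 3 experiments alone, and without the C57BL/6J or the IL-1R1 gKO mice. It went from 3 to 0 for the IL-1R1 nRestore sham mice with the experiment in place of time. No other count of the 9 genes changed in the alternatives run. These changes of call went with fewer mice or more genes tested in some of the settings, and otherwise the cause was not tested. The count of all genes called also moved over the alternatives (tools, factors, filters, covariates and mice left out), and ran from 1226 to 2858 in C57BL/6J mice at 9 h (2385 in the report), 137 to 1984 in IL-1R1 eRestore mice (1222), 0 to 218 in IL-1R1 gKO mice (33), 12 to 806 in IL-1R1 nRestore mice (102) and 327 to 5156 in all strains (4483). At 24 h it ran from 17 to 333 in C57BL/6J mice (67), 0 to 120 in IL-1R1 gKO mice (1), 0 to 93 in IL-1R1 eRestore mice (0), 0 to 5 in IL-1R1 nRestore mice (0) and 0 to 471 in all strains (274). At 72 h it ran from 0 to 38 in C57BL/6J mice (0), 0 to 3 in IL-1R1 gKO mice (0), 0 to 16 in IL-1R1 eRestore mice (1), 0 to 11 in IL-1R1 nRestore mice (2) and down to 0 in all strains (130). For the IL-1R1 nRestore sham mice it ran from 396 to 2763 (2275), and between 24 and 72 h from 3 to 9 (7).

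Within single strains only Adam10 and Cdk5r1 at 9 h were tallied, so sign changes of other genes or at later times there are not counted. Among the log2 fold changes tallied, the sign turned in 65 cases, none of them called in the report. At 9 h this was so in C57BL/6J mice for Adam10 (0.0099) in experiment eIL-1-76 alone. In IL-1R1 gKO mice at 9 h it was so for Adam10 (0.022) without sham replicate 6, the values over the left-out sham mice running from −0.060 to 0.022. In IL-1R1 nRestore mice at 9 h it was so for Adam10 (0.046) with experiment in place of age, Adam10 (0.050) with no covariates, Adam10 (0.0056) with no filter, and Adam10 (0.029) without sham replicate 3, the values over the left-out sham mice running from −0.034 to 0.029. In all strains at 9 h it was so for App (−0.015), Aplp1 (−0.015), Aplp2 (−0.042), Adam10 (−0.024) and Psen2 (0.016) in experiment TM-2-33 alone, App (−0.017), Aplp2 (−0.0043) and Adam10 (−0.0058) in experiment eIL-1-80 alone, App (−0.0022), Adam10 (−0.012) and Psen2 (0.0075) without IL-1R1 eRestore mice, Bace1 (0.0044), Mapt (0.014) and Cdk5 (−0.0078) in experiment eIL-1-76 alone, Bace1 (0.0022) without C57BL/6J mice, Bace1 (0.0089) and Cdk5 (−0.070) without IL-1R1 gKO mice, and Psen2 (0.0078) without IL-1R1 nRestore mice. In all strains at 24 h it was so for App (−0.00035), Aplp2 (−0.0047), Adam10 (−0.030) and Cdk5r1 (−0.038) with 3 libraries farthest from their groups left out, App (−0.034), Aplp2 (−0.015), Adam10 (−0.067), Cdk5 (0.015) and Cdk5r1 (−0.047) in experiment eIL-1-38 alone, Adam10 (−0.010), Cdk5 (0.0037) and Cdk5r1 (−0.043) with experiment in place of age, Adam10 (−0.017) and Cdk5r1 (−0.016) without IL-1R1 nRestore mice, Bace1 (−0.0026) and Mapt (0.0031) with no covariates, Mapt (0.0072) without C57BL/6J mice, Mapt (0.0013) without IL-1R1 gKO mice, Cdk5 (0.0057) and Cdk5r1 (−0.048) in experiment NiL-1-24 alone, Cdk5r1 (−0.0029) with 10 counts in every mouse, Cdk5r1 (−0.00062) with 2 mice of unmatched sex left out, Cdk5r1 (−0.0014) with DESeq2 size factors, Cdk5r1 (−0.0015) with RLE factors, Cdk5r1 (−0.0012) with no filter, and Cdk5r1 (−0.0042) without IL-1R1 eRestore mice. In all strains at 72 h it was so for App (−0.011), Aplp2 (−0.028), Adam10 (−0.024), Bace1 (−0.079), Mapt (−0.022) and Cdk5 (0.026) in experiment eIL-1-38 alone, App (−0.042), Aplp1 (−0.0080), Aplp2 (−0.028), Mapt (−0.049) and Cdk5r1 (−0.084) in experiment nIL-1-60 alone, Bace1 (−0.0059) with 3 libraries farthest from their groups left out, Bace1 (−0.0060) and Cdk5 (0.0074) without IL-1R1 nRestore mice, and Psen2 (−0.0039) in experiment eIL-1-56 alone.

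No paired analysis was possible because the replicate numbers follow the order of the samples and pair no mice across groups. The settings that left out the 2 mice of unmatched sex, left out the 3 farthest libraries, used the experiment in place of time or took out the first component of all genes were chosen after seeing the data. Counting error is small for 8 of the genes and largest for Psen2, which had a median of 199.5 counts per mouse. Fitted precision did not follow the counts. Over all strains the standard error of App exceeded that of Psen2 at 24 h (0.053 against 0.048) and at 72 h (0.052 against 0.043). Correlations moved outside their 95% intervals in 15 cases, 11 of them when the experiment was not taken out and 4 when the first component was.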
